A study of Mus musculus with 11 samples.

Results

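DNA methylation was examined at 10 serotonin receptor genes in newborn mouse pancreas: Htr1a, Htr1b, Htr1d, Htr1f, Htr2a, Htr2b, Htr3b, Htr4, Htr5a and Htr7. Members were all rows with these symbols in the deposited tables of promoters and genes, together with each CpG island and each 5000 bp window that overlapped them. They comprised 10 of 25802 gene rows, 9 of 24391 promoters, 5 of 14841 CpG islands and 63 of 259716 windows. Htr2b had a gene row but no promoter row. The gene identifiers in the tables were ENSMUSG00000021721 (Htr1a), ENSMUSG00000049511 (Htr1b), ENSMUSG00000070687 (Htr1d), ENSMUSG00000050783 (Htr1f), ENSMUSG00000034997 (Htr2a), ENSMUSG00000026228 (Htr2b), ENSMUSG00000008590 (Htr3b), ENSMUSG00000026322 (Htr4), ENSMUSG00000039106 (Htr5a) and ENSMUSG00000024798 (Htr7).

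Serotonin is best known as a transmitter of the nervous system, but endocrine cells of the pancreas also make it, store it and release it together with their hormones. Nearly all of its receptors are G protein-coupled. The Htr1 and Htr5 classes act through inhibitory G proteins and lower cyclic AMP, the Htr2 class raises intracellular calcium through phospholipase C, and Htr4 and Htr7 raise cyclic AMP. The Htr3 class differs from the rest in forming a cation channel. In islets of pregnant mice, Htr2b is known for its part in the expansion of beta cells and Htr1d for an opposing action near term. Methylation of cytosines in CpG dinucleotides is a mark placed on DNA, and CpG-dense gene starts are usually free of it while gene bodies and CpG-poor promoters usually carry it.

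The pancreata came from 11 C57BL/6N wild-type mice of both sexes at postnatal day 0. Of these, 5 (3 females and 2 males) were born to dams injected with amphetamine at 10 mg/kg on embryonic days 14.5, 15.5 and 16.5, and 6 (3 females and 3 males) to dams given saline, here called controls. Reduced representation bisulfite sequencing was used, in which the enzymes MspI (CCGG) and TaqI (TCGA) cut the DNA and reads cover the CpGs beside the cuts. How the mice fell into litters was not used here, so the p-values measure the spread among these mice, which may include a shared litter. Each table held the mean, SD, lowest and highest value of a group, computed by the authors over the mice with reads. Values per mouse were not analysed here, and the lowest and highest mouse of each group stand in for them.

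Coverage, the number of calls behind a level, was 1.24 times as high in the amphetamine group as in the controls when summed over all promoters, and females exceeded males 1.12 times. The medians over all promoters were 230.2 and 184.2 calls per mouse in the amphetamine and control groups. Among the members, mean control coverage of promoters lay between 4.17 (Htr2a) and 568.7 (Htr7) and that of genes between 15.3 (Htr2b) and 2175 (Htr1f), so that Htr2a and Htr3b promoters and the Htr2b gene row are the least certain levels. As a check of tissue, promoters of islet marker genes had a median control level of 2.24% (6 of 10 listed genes with a row), against 57.2% for acinar (11 of 18), 78.9% for hepatocyte (4 of 8), 78.0% for leukocyte (3 of 5) and 19.8% for erythroid markers (1 of 5). Single islet promoters ranged from 0.758% to 90% and acinar ones from 3.56% to 100%. Over gene rows the medians were 71.1% for islet, 72.9% for acinar, 84.9% for hepatocyte, 64.9% for leukocyte and 44.5% for erythroid markers, so the islet and acinar lists differed little there. A methylation level does not show whether a marker is expressed, and each level averages over all cell types in the organ. Fewer cells of a type and less methylation per cell cannot be told apart in whole organs.

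The sequence before the gene starts differed greatly in CpG content. Shown here are 250 bases upstream of RefSeq starts (GRCm38.p6, the assembly of the mm10 build used in the tables). They are given for the densest (Htr7) and the sparsest (Htr3b) member promoter and for Htr1f, whose start lies in a short CpG island. Both starts of Htr1d are also shown, as its promoter around the first and its island around the second differed in methylation. All are written 5′ to 3′ on the strand of the gene, with each CpG in capitals.
Htr7, chr19:36057361-36057610, minus strand: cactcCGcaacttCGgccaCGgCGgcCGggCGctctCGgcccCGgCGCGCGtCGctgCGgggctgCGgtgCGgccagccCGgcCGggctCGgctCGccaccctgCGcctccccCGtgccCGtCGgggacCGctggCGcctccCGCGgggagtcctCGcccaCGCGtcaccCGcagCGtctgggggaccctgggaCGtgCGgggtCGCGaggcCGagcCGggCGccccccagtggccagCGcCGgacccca
Htr1f, chr16:65105785-65106034, minus strand: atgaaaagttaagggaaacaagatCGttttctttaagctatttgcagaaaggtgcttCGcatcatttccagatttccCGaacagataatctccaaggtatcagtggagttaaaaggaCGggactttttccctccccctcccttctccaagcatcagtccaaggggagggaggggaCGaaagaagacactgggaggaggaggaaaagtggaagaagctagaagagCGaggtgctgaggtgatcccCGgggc
Htr1d, first start, chr4:136423274-136423523, plus strand: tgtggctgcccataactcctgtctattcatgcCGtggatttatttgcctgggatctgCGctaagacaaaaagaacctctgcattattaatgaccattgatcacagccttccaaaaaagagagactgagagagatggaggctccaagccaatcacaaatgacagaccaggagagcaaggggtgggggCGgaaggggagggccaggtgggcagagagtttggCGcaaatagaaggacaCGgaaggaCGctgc
Htr1d, second start, chr4:136424362-136424611, plus strand: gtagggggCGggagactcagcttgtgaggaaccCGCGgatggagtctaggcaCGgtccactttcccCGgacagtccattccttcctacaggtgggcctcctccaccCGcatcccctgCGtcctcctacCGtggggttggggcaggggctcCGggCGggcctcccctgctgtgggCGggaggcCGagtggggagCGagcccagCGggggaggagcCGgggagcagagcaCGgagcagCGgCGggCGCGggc
Htr3b, chr9:48964991-48965240, minus strand: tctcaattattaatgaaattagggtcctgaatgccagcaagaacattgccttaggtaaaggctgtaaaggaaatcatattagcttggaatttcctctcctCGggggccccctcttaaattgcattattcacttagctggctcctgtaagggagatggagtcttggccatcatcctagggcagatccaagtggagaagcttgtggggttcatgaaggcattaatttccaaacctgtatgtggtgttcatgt

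The Htr7 stretch held 41 CpGs and 6 MspI sites, with 82.0% G and C. That of Htr3b held 1 CpG and no MspI or TaqI site. The 2 starts of Htr1d, only about 1 kb apart, held 6 and 20 CpGs, and MspI cut 0 and 3 times in them. In Htr1f, 7 CpGs and 1 MspI site were found. In Htr3b and at the first Htr1d start, 0 CpGs of the printed stretch lay within 50 bp of a cut, so that the levels of their promoters, which reach 1500 bp before and 500 bp past the listed gene start, rest on CpGs outside it.

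Over the whole 2000 bp, Htr7 had 122 CpGs, more than 91.2% of all 24391 promoters, whereas Htr3b had 21 (more than 11.9%), Htr1d 30 (24.4%) and Htr1a 34 (29.2%). The others were Htr5a with 39, Htr2a with 46, Htr1b with 52, Htr1f with 57 and Htr4 with 61, around the median of 58 for all promoters. CpGs within 50 bp of a cut, those that short reads can reach, numbered 109 in Htr7, 33 in Htr4 and Htr1f, 27 in Htr1b, 25 in Htr1a, 15 in Htr5a, 11 in Htr1d, 9 in Htr3b and 7 in Htr2a. Across all promoters the control level fell with CpG number, from a median of 75.5% among 6026 promoters with 20 to 39 CpGs to 10.7% (quartiles 2.48% and 56.7%) among 3951 with 40 to 59 and 3.33% among 4034 with 60 to 79. Htr1a and Htr5a had few CpGs and low levels, below the lower quartile of 45.3% of the promoters with 20 to 39 CpGs. Htr7 was the reverse, its 8.32% lying above the upper quartile of 3.32% of the 2289 promoters with 120 CpGs or more.

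**Figure D1:**
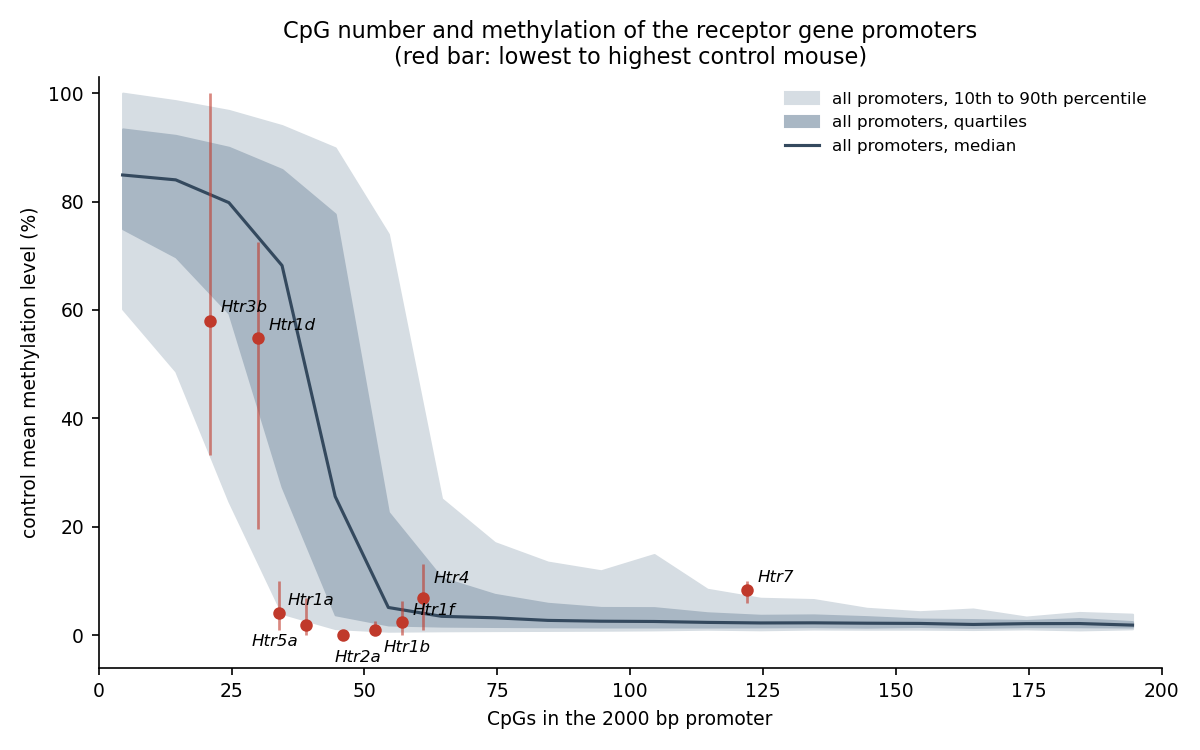
The mean control methylation level (%, vertical) is plotted against the number of CpGs in the 2000 bp promoter (horizontal) for 9 serotonin receptor promoters (red points, with bars from the lowest to the highest control mouse) over the median, quartiles and 10th to 90th percentiles of all promoters in bins of 10 CpGs. Htr3b (21 CpGs) and Htr1d (30) lie above 50%, whereas the 34 CpGs of Htr1a and 39 of Htr5a go with levels of 4.03% and 1.89%.

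In the control mice, 7 of the 9 promoters had mean levels under 10%. In ascending order these were Htr2a with 0%, Htr1b with 1.07% ± 1.20 (SD, n = 6), Htr5a with 1.89% ± 3.02 (n = 6), Htr1f with 2.53% ± 2.90 (n = 6), Htr1a with 4.03% ± 3.36 (n = 6), Htr4 with 6.93% ± 4.31 (n = 6) and Htr7 with 8.32% ± 1.45 (n = 6). Htr1d and Htr3b stood apart with 54.8% ± 18.3 (n = 6) and 58.0% ± 29.7 (n = 4). The ranges of neighbors in this order overlapped in every case but 1, the step from Htr7 (5.99% to 10.0%) to Htr1d (19.6% to 72.6%). The Htr2a promoter was listed at 0% in all 7 mice with reads, with 111 calls in all, which allows a level of up to 2.70% (counting error only).

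Htr1a and Htr1b, whose products act as autoreceptors on serotonin neurons, have short gene rows at chr13:105443693-105448133 and chr9:81628291-81633828, and whole-gene control levels were low there too, at 5.08% ± 4.07 and 9.45% ± 3.71 (n = 6). Their CpG islands, in the coding exon of Htr1a (chr13:105444637-105445143) and across the promoter and coding exon of Htr1b (chr9:81631676-81633537), had control levels of 3.70% ± 9.07 and 0.877% ± 0.889. The SD of the Htr1a island rested on single mice, as 22.2% was the highest control and 0% the lowest.

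Htr1d, which encodes another inhibitory receptor, lies at chr4:136423524-136444398 and combined a methylated promoter with an unmethylated island. The promoter at the first start (chr4:136422024-136424023) had 54.8% in controls, and the lowest control mouse was at 19.6%. The island around the second start (chr4:136424468-136425144, in an intron by the GENCODE annotation, with 66 CpGs in 677 bp) had 1.77% ± 1.98, and the highest control mouse there was at 5.35%. Every control mouse was thus lower at the island than the lowest one at the promoter. Along the gene, the control level of successive windows was 8.77% at the start, then 40.6%, 41.4% and 70.4%, and 91.7% in the window with the coding exon (chr4:136440001-136445000), which encodes the whole receptor. The window at the start holds the promoter (57.3 calls per control mouse) and most of the island (492.7 calls over the whole island).

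The longest gene of the class, Htr1f (chr16:64924729-65105784), had a CpG island of 246 bp with 32 CpGs at its start (chr16:65105545-65105790) and 22 windows. The promoter, the island and the window at the start had identical values, since the same CpGs were measured in all 3, and they count as 1 observation (control 2.53% ± 2.90). In the other windows, from 13.3 to 173.3 kb downstream, control means lay between 50% and 94.6%. The lowest of them, 50%, came from a window with only 1.33 calls per control mouse. The whole-gene level was 79.8% ± 3.19.

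In the Htr2 class, Htr2a (chr14:74640840-74706859) went from 0% in its promoter to 25.8% ± 10.2 in the window at its start, 86.2% in the last window and 58.5% ± 10.4 over the gene. Htr2b (chr1:86099026-86111970) was listed at 100% in all 5 amphetamine mice and at 92.5% ± 16.8 in the 5 controls with reads, from mean coverages of 27.4 and 15.3 calls in a single intronic window. At this depth a level between 62.5%, the lowest control, and 100% in a mouse rests on few calls.

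Htr3b (chr9:48935008-48964990), a subunit that forms channels only together with another subunit, had 59.7% in the window at its start. The other members with a window there had control means of 25.8% or less. Htr2b had no window at its start, and the promoter of Htr1d was methylated as well. The 4 windows of Htr3b had control means of 59.6% to 73.0%, the highest from only 7.17 calls per control mouse, and its gene row had 63.5% ± 8.10. Htr4 (chr18:62324204-62467802) and Htr7 (chr19:35958734-36057507), which raise cyclic AMP, had low starts and highly methylated bodies. In Htr4 the control level was 13.4% ± 7.61 in the window at the start and 75% to 100% in the other 8 windows. In Htr7 it was 15.6% ± 1.66 at the start and 50% to 96.7% in the other 6, and its island (chr19:36056602-36057781, with 136 CpGs) had 3.47% ± 1.98. The 50% of Htr7 and the 100% of Htr4 came from windows with only 1.67 and 4.17 calls per control mouse. Htr5a (chr5:27841947-27855086) had 1.89% at its start and 75% in the next window, and its gene row, at 46.4% ± 20.1, ranged from 10.7% to 67.5% among controls.

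**Figure D2:**
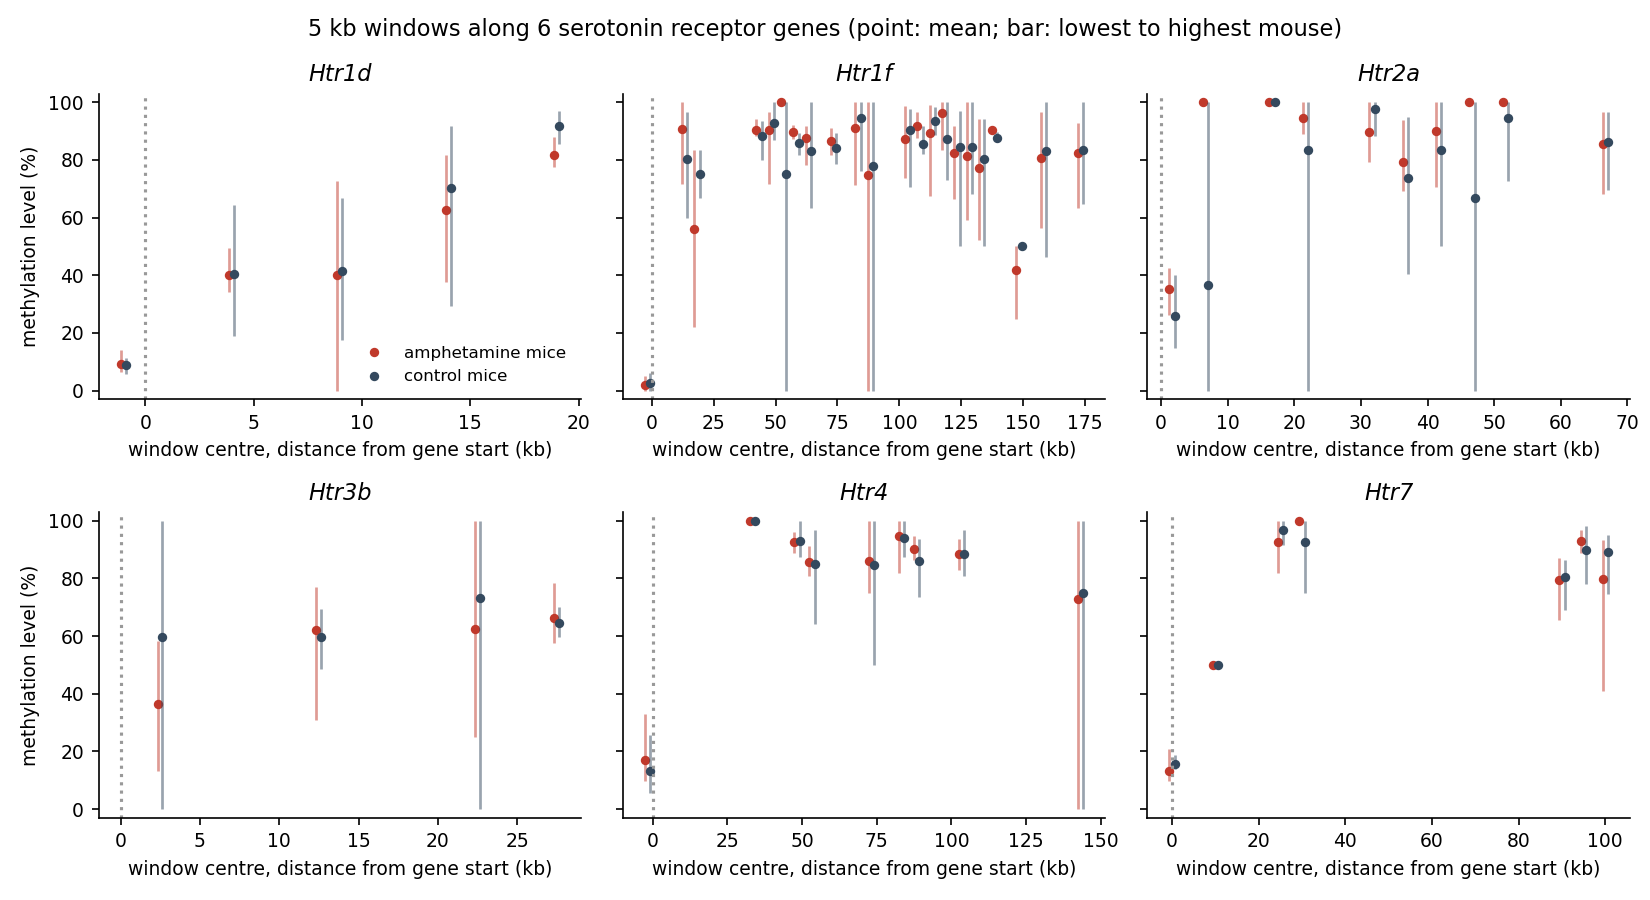
Methylation level (%, vertical) of each 5000 bp window against the distance of its center from the gene start (kb, horizontal, positive downstream) in amphetamine (red) and control (dark) mice, with the mean as a point and the lowest to the highest mouse as a bar. Levels were low in the window at the start and higher in the body in Htr1d, Htr1f, Htr4 and Htr7. In Htr1d that window holds most of the unmethylated island as well as the methylated promoter. The 4 windows of Htr3b had control means between 59.6% and 73.0%.

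Prenatal amphetamine was then compared with saline, the question being whether the drug left a mark on these genes in the offspring. In none of the 4 classes did a member pass an adjusted p of 0.05 (limma's moderated test, two-sided, Benjamini-Hochberg over all regions of a class), and the smallest adjusted p of any member was 0.923, among islands. Few regions passed anywhere: 0.0164% of all promoters, 0.0116% of genes, 0.0135% of CpG islands and 0.0185% of windows. At an unadjusted p under 0.05 there were 0 of 9 promoters, 0 of 10 genes, 0 of 5 islands and 4 of 62 windows, where 4.11%, 4.38%, 4.10% and 4.40% of all regions of these classes lay. No member with reads in all 11 mice (7 promoters, 9 genes, 5 islands and 48 windows) had groups that did not overlap, against 0.395%, 0.312%, 0.443% and 0.351% of all such regions.

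Directions were mixed among promoters and less so over whole genes. Of the promoters, 3 were higher after amphetamine (Htr1a, Htr1b and Htr5a), 5 were lower and Htr2a was equal, with a median difference of -0.43 percentage points, beside 48.6% higher and a median of 0 among all promoters. Of the 10 gene rows, 7 were higher and 3 (Htr1d, Htr1f and Htr3b) lower, with a median of 3.23 points, beside 47.9% higher and a median of -0.0852 among all genes. Islands split 2 to 3 and windows 32 to 28, with 3 equal.

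At the start of Htr1a the amphetamine mice had 8.46% ± 7.36 (n = 5, 0.833% to 17.7%) and the controls 4.03% ± 3.36 (n = 6, 0.952% to 9.93%). The groups overlapped, since the lowest of all mice was also treated, and the difference of 4.43 points had a 95% interval of -2.76 to 11.6 (limma, adjusted p = 0.958). It became 2.12 points without the highest amphetamine mouse, and was 1.12 in the window at the gene start. At Htr1b, levels were 5.26% ± 6.52 (0% to 14.3%) and 1.07% ± 1.20 (0% to 2.62%), a difference of 4.19 points (-1.62 to 10.0) that became 1.93 without the highest amphetamine mouse. The least covered mouse there had 30 calls in the amphetamine group and 5 in the controls. At Htr5a, 2.85% ± 6.20 (0% to 13.9%) stood against 1.89% ± 3.02 (0% to 6.87%), and without the highest amphetamine mouse the difference of 0.964 points turned to -1.81. In these 3 promoters the highest amphetamine mouse lay above every control.

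Among the promoters with lower means, Htr7 had 6.09% ± 2.75 (3.29% to 10.2%) after amphetamine and 8.32% ± 1.45 in controls, a difference of -2.22 points (95% interval -5.11 to 0.664). Its island moved the same way, with 1.41% ± 1.58 and 3.47% ± 1.98 (-2.06 points, -4.44 to 0.321), although the island and the promoter share CpGs. Htr4 had 4.45% ± 3.75 and 6.93% ± 4.31, and Htr1f 2.09% ± 2.29 and 2.53% ± 2.90. Neither direction was stable: at Htr4 the -2.49 points of the promoter stood against 3.59 in the window at the gene start, and at Htr1f -0.435 points turned to 0.0889 without the lowest amphetamine mouse and to 0.309 without the highest control mouse. The intervals of these promoters and islands bound the change to within 8 points either way. For Htr1d, with 49.5% ± 19.2 (21.2% to 67.2%) and 54.8% ± 18.3, the interval ran from -29.6 to 18.9 points, so that a sizable change could not be seen at this spread.

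**Figure D3:**
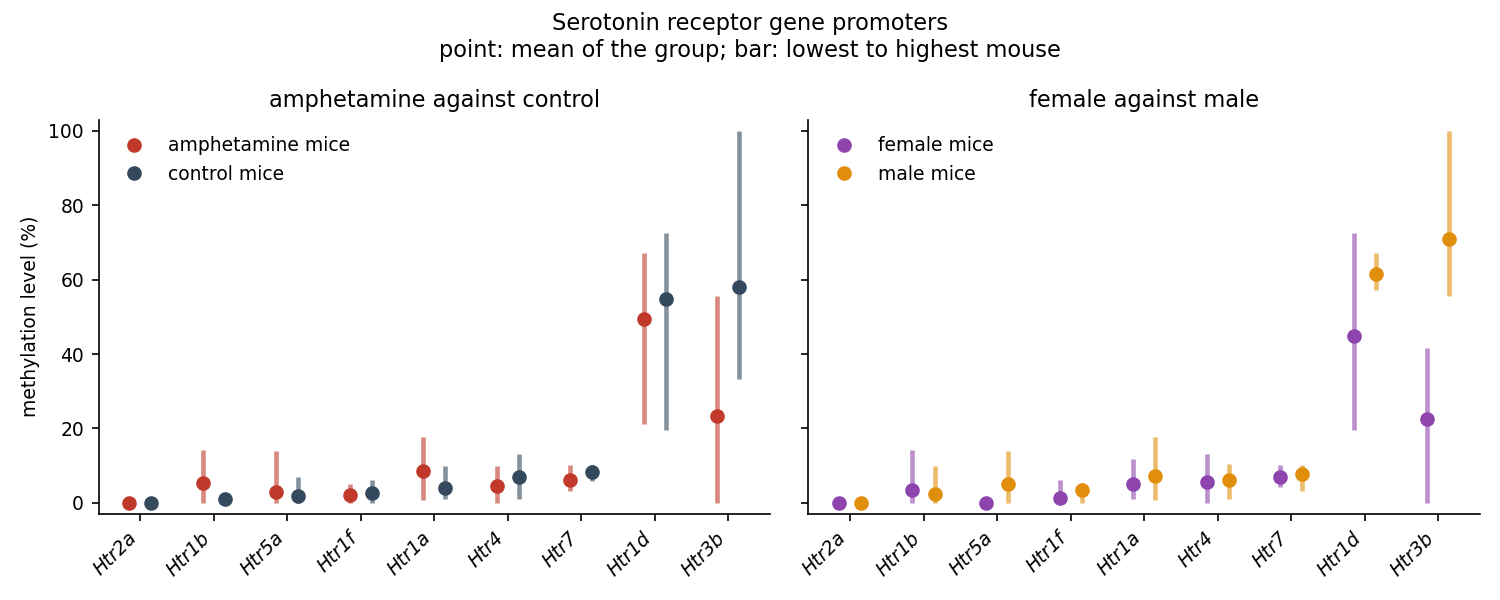
Methylation level (%, vertical) of the 9 promoters, ordered by control mean, in amphetamine and control mice (left) and in female and male mice (right), with the group mean as a point and the lowest to the highest mouse as a bar. The amphetamine and control ranges overlap at each promoter, and at Htr3b the female range (0% to 41.7%) ends below the male one (55.6% to 100%).

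The Htr3b promoter gave the widest gap between treatment means, 23.3% ± 24.1 in 4 amphetamine mice (0% to 55.6%) and 58.0% ± 29.7 in 4 controls (33.3% to 100%), from mean coverages of 13.6 and 10.5 calls. The ranges overlapped, and the difference of -34.7 points had an interval of -77.4 to 7.96 (limma, adjusted p = 0.958). In the window at the gene start, which overlaps this promoter and had reads in all mice, the difference was -23.4 points (-60.7 to 13.9).

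Over whole genes the differences upward were largest at Htr5a and Htr2a. Htr5a had 57.0% ± 6.27 against 46.4% ± 20.1 (10.6 points, 95% interval -9.11 to 30.3), which became 3.45 points without the lowest control mouse. Htr2a had 66.7% ± 3.70 (62.8% to 71.4%) against 58.5% ± 10.4 (44.4% to 73.4%), a difference of 8.19 points (-2.20 to 18.6). Without 1 extreme mouse it lay between 5.38 and 11.2. Htr7 had 50.5% ± 8.25 and 44.0% ± 4.23 (6.54 points, -1.66 to 14.7, and 3.15 without the highest amphetamine mouse), opposite in direction to its promoter. Htr3b was lower by its means, with 56.2% ± 10.9 and 63.5% ± 8.10 (-7.33 points, -19.4 to 4.75). The narrowest intervals were those of Htr1f and Htr1d: Htr1f differed by -0.0711 points (-3.63 to 3.49) and Htr1d by -0.203 (-3.45 to 3.05). All 10 intervals included 0.

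**Figure D4:**
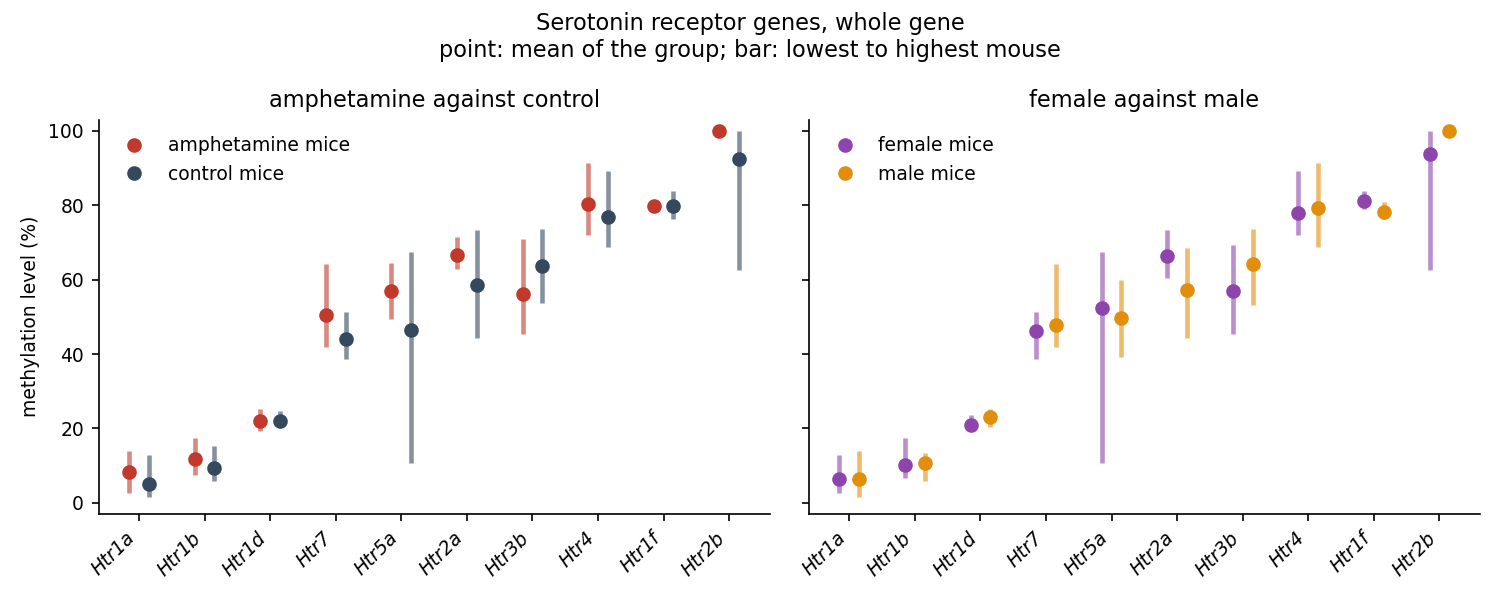
Methylation level (%, vertical) of the 10 gene rows, ordered by control mean, in amphetamine and control mice (left) and in female and male mice (right), with the group mean as a point and the lowest to the highest mouse as a bar. From Htr1a (5.08% in controls) to Htr2b (92.5%) the levels span nearly the whole scale, and the ranges of the groups overlap at each gene.

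CpG islands, which rest on many CpGs in little sequence, gave narrow intervals in 4 of 5 cases. The Htr1b island was at 2.94% ± 3.34 (0% to 7.81%) after amphetamine and 0.877% ± 0.889 (0% to 2.40%) in controls, a difference of 2.06 points (-0.972 to 5.09) in the direction of its promoter, with which it shares CpGs. The Htr1d island was at 1.41% ± 0.887 and 1.77% ± 1.98 (-0.357 points, -2.45 to 1.74), so that the low level around the second start was seen in both groups. The Htr1a island, at 5.25% ± 11.1 and 3.70% ± 9.07, had an interval of -11.4 to 14.4 points, and in each group the range ran from 0% to over 20%.

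The 4 windows at an unadjusted p under 0.05 lay in 3 genes of the Htr1 class, and each had an adjusted p of 0.965 (limma). In Htr1d it was the window with the coding exon, at 81.6% ± 4.51 (n = 5, 77.4% to 88.0%) after amphetamine and 91.7% ± 4.69 (n = 6, 85.4% to 96.8%) in controls, a difference of -10.1 points (95% interval -16.4 to -3.67). Its coverage was 594.4 and 436.3 calls. Without 1 extreme mouse the difference lay between -11.7 and -9.01, but leaving out 1 mouse moves a mean little, and the window was picked by its p-value. In Htr1a it was the window at the 3′ end of the gene (chr13:105445001-105450000), with 29.2% ± 16.2 (9.68% to 48.1%) and 7.56% ± 9.21 (0% to 21.7%), a difference of 21.6 points (5.11 to 38.1). The adjoining window with the gene start had 5.78% and 4.66%. In Htr1f 2 intronic windows were higher after amphetamine, at 90.5% ± 0.743 and 87.4% ± 1.41 (chr16:64965001-64970000) and at 91.8% ± 3.80 and 85.5% ± 3.41 (chr16:64995001-65000000). Another intronic window of Htr1f (chr16:65045001-65050000), next by p-value among the 54 with at least 10 calls and 3 mice per group, had 89.7% and 85.8%. The most extreme difference of means among all windows, 63.3 points in Htr2a (chr14:74645001-74650000), rested on 3 mice per group and was listed at 100% after amphetamine and 36.7% in controls, with 11.2 calls per control mouse. In the 5 windows before it the groups overlapped, and the 22 windows of Htr1f as a whole split into 9 higher and 13 lower.

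The same mice were also compared by sex, 6 females against 5 males, so that these differences are not independent of those by treatment. Again no member passed an adjusted p of 0.05 (limma), and the smallest were 0.341 among windows and 0.472 among promoters. With the fit and adjustment over autosomes alone, the smallest were 0.583 and 0.936 (limma). Of all regions, 0.564% of promoters, 0.373% of genes, 1.09% of CpG islands and 0.0760% of windows passed. At an unadjusted p under 0.05 there were 1 of 9 promoters, 0 of 10 genes, 0 of 5 islands and 6 of 61 windows, beside 6.07%, 6.50%, 6.65% and 5.59% of all regions. Among members with reads in all mice, 0 promoters, genes and islands and 2 of 48 windows had females and males that did not overlap, beside 1.55%, 1.03%, 1.91% and 0.626% of all regions. All 10 genes are autosomal, and these shares include the X and Y chromosomes. Over autosomes, shares chosen after seeing the data, an adjusted p under 0.05 (limma) was reached by 0.0130% of promoters, 0.00408% of genes, 0.00694% of islands and 0.0300% of windows, an unadjusted one by 4.62%, 5.50%, 4.79% and 5.26%, and sexes did not overlap in 0.462%, 0.449%, 0.492% and 0.469%. Promoters were lower in females in 7 of 9 rows, with a median difference of -2.26 points, beside 50.4% higher and a median of 0.0235 among all promoters, X and Y included.

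Htr3b was the promoter below an unadjusted p of 0.05. It had 22.6% ± 16.9 in 5 females (0% to 41.7%) and 70.9% ± 25.2 in 3 males (55.6% to 100%), a difference of -48.3 points (95% interval -81.0 to -15.7; limma, adjusted p = 0.472). The ranges did not overlap, but only 8 of 11 mice had reads, at mean coverages of 13.5 and 10.0 calls, and the choice of 1 mouse moved the difference between -56.0 and -33.8. The window at the gene start, with reads in all mice, had 45.7% ± 31.1 in females and 53.1% ± 32.2 in males, a difference of -7.44 points (-47.8 to 33.0). Which of the 8 mice were treated was not analysed here, and the amphetamine group was also the lower one at this promoter.

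The Htr5a promoter was at 0.0521% ± 0.128 in females, with 0.313% as their highest value, and at 5.05% ± 5.78 in males (0% to 13.9%). The difference of -5.00 points had an interval of -10.1 to 0.0655 (limma, adjusted p = 0.835). The highest value of 13.9% was also the highest of the amphetamine group. Htr1d had 44.7% ± 21.8 in females (19.6% to 72.6%) and 61.6% ± 4.22 in males (57.2% to 67.2%), and the female range enclosed the male one.

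Over whole genes, females were higher by their means in 4 and lower in 6 of 10, with a median difference of -0.879 points, beside 53.2% higher and a median of 0.258 among all genes. Those values for all genes include the X and Y chromosomes, whereas the members are autosomal. The smallest p-values were those of Htr1f, with 81.0% ± 1.93 (78.8% to 83.9%) in females and 78.3% ± 1.95 (76.2% to 80.8%) in males (2.78 points, 95% interval -0.211 to 5.77), and Htr2a, with 66.4% ± 5.23 (60.6% to 73.4%) and 57.2% ± 10.1 (44.4% to 68.6%), a difference of 9.18 points (-0.789 to 19.2). Both had an adjusted p of 0.799 (limma), and in both the ranges overlapped. Of the 5 islands, 2 were higher and 3 lower in females, by differences of -2.28 to 0.831 points.

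Of the 6 windows, 3 lay in Htr4, 2 in Htr1d and 1 in Htr2a. The Htr2a window with the last coding exon (chr14:74705001-74710000) was at 93.5% ± 3.23 in females (89.7% to 96.7%) and 76.8% ± 8.15 in males (68.3% to 85.7%), with coverages of 268.7 and 312.4 calls. All females lay above all males, and the difference of 16.6 points had a 95% interval of 8.63 to 24.6 (limma, adjusted p = 0.341). By treatment the same window had 85.5% and 86.2%. The other window without overlap was that at the start of Htr1d (chr4:136420001-136425000), at 7.32% ± 1.06 in females (5.68% to 8.27%) and 11% ± 1.92 in males (8.70% to 14.0%), a difference of -3.67 points (-6.80 to -0.545). A further Htr1d window (chr4:136435001-136440000) had 55.4% ± 24.2 and 80.6% ± 7.76. In Htr4 females were higher by their means in 2 intronic windows, 95.3% and 89.7% (chr18:62370001-62375000) and 91.2% and 78.2% (chr18:62375001-62380000), and lower in another, 76.7% and 95.6% (chr18:62395001-62400000). In these 3 windows and the second Htr1d window the sexes overlapped. All 5 Htr1d windows had lower means in females, with differences of -25.2 to -1.94 points.

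**Figure D5:**
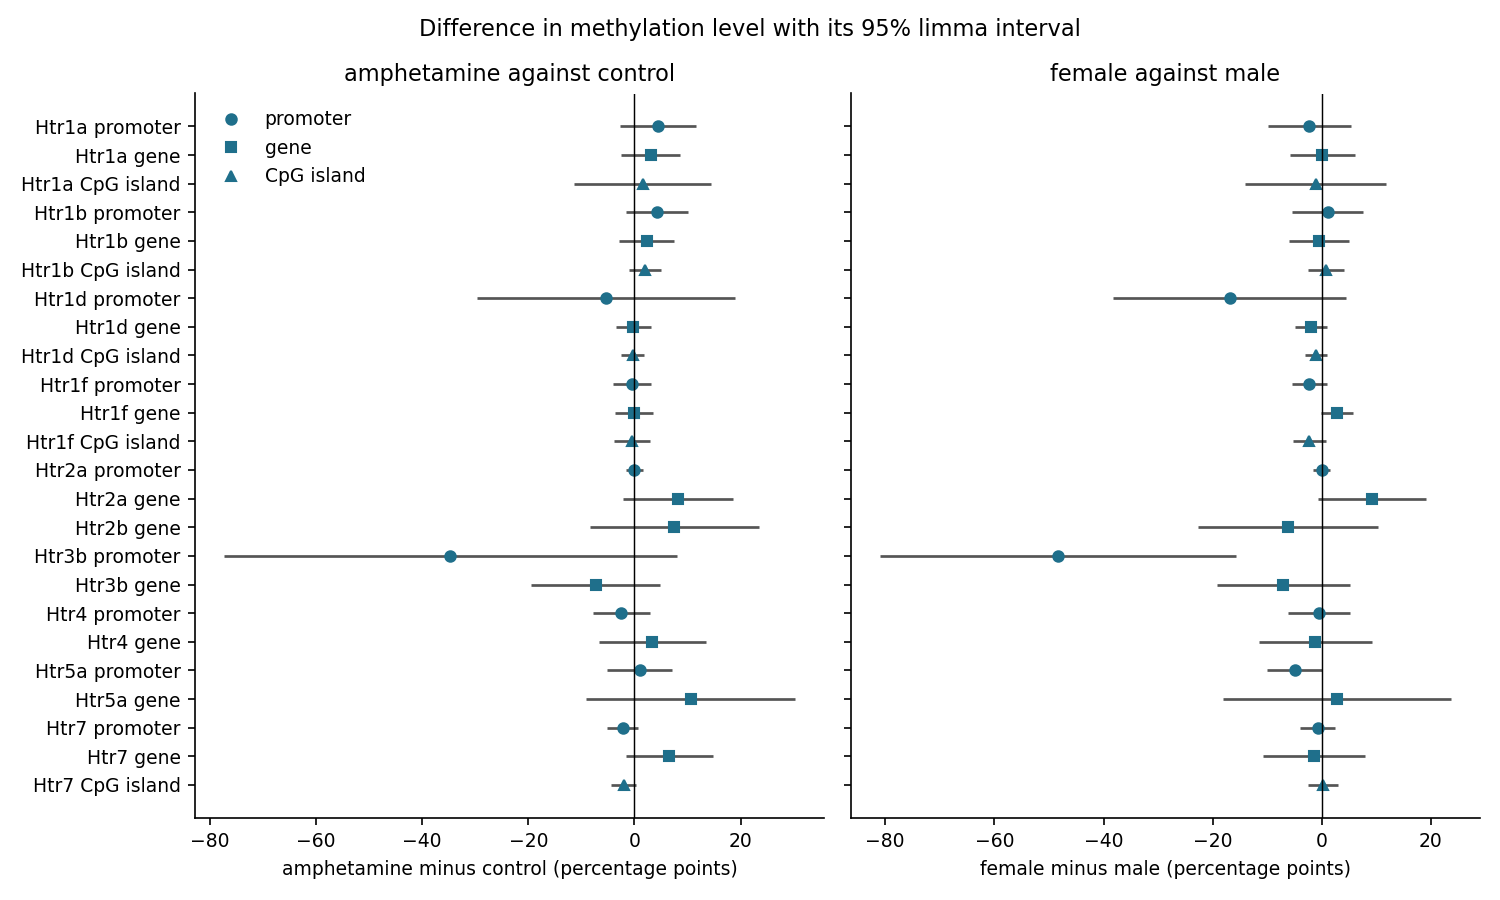
Differences in methylation level (percentage points, horizontal) of the 9 promoters, 10 genes and 5 CpG islands for amphetamine minus control (left) and female minus male (right), with 95% limma intervals as bars. All intervals include 0 on the left, and on the right that of the Htr3b promoter (-81.0 to -15.7) does not.

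A further list of 13 genes, other serotonin receptors and genes of serotonin synthesis, transport, breakdown and their regulator Fev, gave no adjusted p under 0.05 in either comparison (limma), and 1 promoter and 0 genes in each at an unadjusted p under 0.05, where 4.11% of all promoters lay by treatment and 6.07% by sex. By treatment, 6 of its 10 promoters in the table were higher and 3 lower, with a median difference of 0.731 points, and of its 13 gene rows 8 were higher and 5 lower, with a median of 0.492 points. Of 8 such promoters covered in all mice, 1 had treatment groups without overlap (0.395% of all promoters), that of Slc18a2, the transporter that loads serotonin and other monoamines into vesicles (chr19:59259378-59261377). It had 4.13% ± 0.646 (3.16% to 4.63%) after amphetamine and 0.224% ± 0.369 (0% to 0.870%) in controls, a difference of 3.91 points (limma, adjusted p = 0.0591). By sex, 6 promoters were higher and 3 lower in females, and 6 genes were higher and 7 lower, and none of the 8 promoters and 13 genes covered in all mice had sexes that did not overlap.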

How the data were processed

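RRBS of P0 pancreas was run by the authors on DNA cut with MspI and TaqI, with single-end reads aligned to mm10 with Bismark, CpGs summarized per region in RnBeads and regions compared with limma. The submitters' processing notes also name methylKit, and versions of Bismark and limma are not given in the sources used here. The deposited values are group means: methylation is a fraction averaged by the authors over those mice that had reads and given here in percent, and coverage is a signal averaged by the authors over all mice of a group and not corrected for depth. Per group, the SD, the extremes and how many mice had reads were taken from the same tables. It is not stated how CpGs were weighted within a region. Columns with the authors' own differences, quotients, p-values, adjusted p-values and ranks were not used. Depth per mouse was not analysed here. The fraction means of both comparisons come from the same mice, as total coverage was the same in both tables for 100% of regions (within 0.01).

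From mean, SD and n, limma's moderated test (limma 3.58.1, R 4.3.3, two-sided, no covariate) was rebuilt for each region with at least 2 mice per group, with Benjamini-Hochberg adjustment over all regions of a class, and was tested on simulated data. Groups were called non-overlapping where the lowest mouse of one lay above the highest of the other, over regions with reads in all 11 mice. All member promoters, genes and islands are described. Windows are named where they hold a gene start or have 1 of the 5 smallest p-values of a comparison, with at least 3 mice and a mean coverage of 10 per group. The second Htr1d window by sex, and the windows that give a range along a gene, were named after their values were seen. Members and lists were chosen with earlier results of these data known. Exons are from GENCODE M21 and sequences from RefSeq (GRCm38.p6), which matched 9 of the 10 genes. Intervals and limits from counts cover counting error only. Alternatives were a variance prior with a trend, coverage minimums of 10 and 50, regions with reads in all mice, autosomes, an arcsine square root scale, an unadjusted threshold, a gap of at least 1 percentage point, the window or island at the gene start in place of the promoter, and leaving out the lowest or highest mouse of a group. Shares over autosomes by sex were added after seeing the data. Python 3.11.15 with pandas 2.3.3 and matplotlib 3.10.9 was used.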

Additional observations from a re-analysis of the deposited data

How the results depend on the processing

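No member passed an adjusted p of 0.05 in any of the 8 tests (4 region classes, 2 comparisons) under the variance prior with a trend, either coverage minimum, reads in all mice, autosomes or the arcsine square root scale, and the smallest adjusted p of a member under these was 0.142 (sex, promoters, arcsine scale). With an unadjusted p under 0.05, 4 windows were called by treatment, and 1 promoter and 6 windows by sex. With a gap of at least 1 percentage point, 1 of the 2 windows with non-overlapping sexes was left, that of Htr2a. By treatment, 10 of the 19 promoter and gene rows were higher, and between 9 and 14 when the lowest or highest mouse of a group was left out. The direction was lost in at least 1 of those settings in 6 of 19 rows by treatment (the promoters of Htr1d, Htr1f and Htr5a and the gene rows of Htr1d, Htr1f and Htr2b) and in 9 of 19 by sex. Of 256 such alternative values for single regions, 251 lay within 1 SD of the reported one. However, 232 of the 256 came from leaving out 1 mouse, a step too small to move a mean beyond that SD, so their count shows nothing about stability. The 5 beyond came from the window at the gene start in place of the promoter, which turned the Htr4 treatment difference from -2.49 to 3.59 points. The causes were not tested. No paired analysis was possible because only group summaries were analysed and the labels do not tie mice of different groups to a shared litter or batch. Among promoter and gene rows, mean depth was lowest at the Htr2a and Htr3b promoters and the Htr2b gene row. How much of the spread in the other rows came from depth and how much from the mice was not tested.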
